A study of Mus musculus with 19 samples.

Results

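Interferon-stimulated antiviral genes were followed across 19 mouse mammary tumours of 4 integrin genotypes. The set comprised 39 named genes, and 36 of them could be tested among the 14231 genes of the array. A member entered through a probe set that carried its symbol and no other, and where several such probe sets existed the one with the highest mean was kept. Dtx3l shared its probe set with Parp9, and Gbp2 shared its probe set with Gbp2b, so both stayed out of the tests. Ifi44 was not analysed here.

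Every mouse carried MMTV-NIC, a transgene in which the MMTV promoter expresses an activated ErbB2 together with Cre recombinase in mammary epithelium. Control tumours (NIC WT, n = 5) had intact integrin genes, Itgb1 knockouts (NIC itgb1 fl/fl, n = 4) and Itgb3 knockouts (NIC itgb3 fl/fl, n = 4) carried 1 pair of floxed alleles, and 6 tumours were labelled double knockout (NIC itgb1 fl/fl itgb3 fl/fl). Cre acts where the MMTV promoter is active, and stromal, vascular and immune cells of the host are not its intended target. Loss of the integrin genes by cell type was not measured. RNA came from whole flash-frozen tumours at end burden, and the labels do not say whether each tumour came from its own animal. In such bulk samples fewer cells of a type and less RNA per cell cannot be told apart. Values are the deposited log2 intensities, so a difference of −1 log2 unit means that the signal was halved.

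Type I interferons bind the receptor pair Ifnar1 and Ifnar2 and signal through the Janus kinases Jak1 and Tyk2. The kinases activate Stat2, which joins Irf9 in a complex that binds the interferon-stimulated response element in the promoters of antiviral genes. The products sense foreign RNA, block translation, trap or starve viruses and tag proteins with the ubiquitin-like Isg15. In mammary tumours this programme can be active without a virus, and both tumour cells and infiltrating cells can express it.

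All 36 members had a lower mean in the tumours labelled double knockout than in control. The median difference of the members was −1.11 log2 units, while the median over all genes tested was 0.03. The differences ran from −2.89 for Usp18, which strips Isg15 from proteins, to −0.36 for Ifit2, a translation inhibitor. Rtp4 and Xaf1 fell, and no other member did pass the test, which asked for a limma p under 0.05 after adjustment over all genes. Against those 2 of 36 members, 0.0913% of all genes passed in the lower direction. At an unadjusted p under 0.05, 33 of the 36 members were lower, against 5.68% of all genes. Trim30a, Ifit2 and Oasl1 were the 3 members without it. The members were chosen with earlier results of these data known, so these counts are not independent of that choice.

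**Figure D1:**
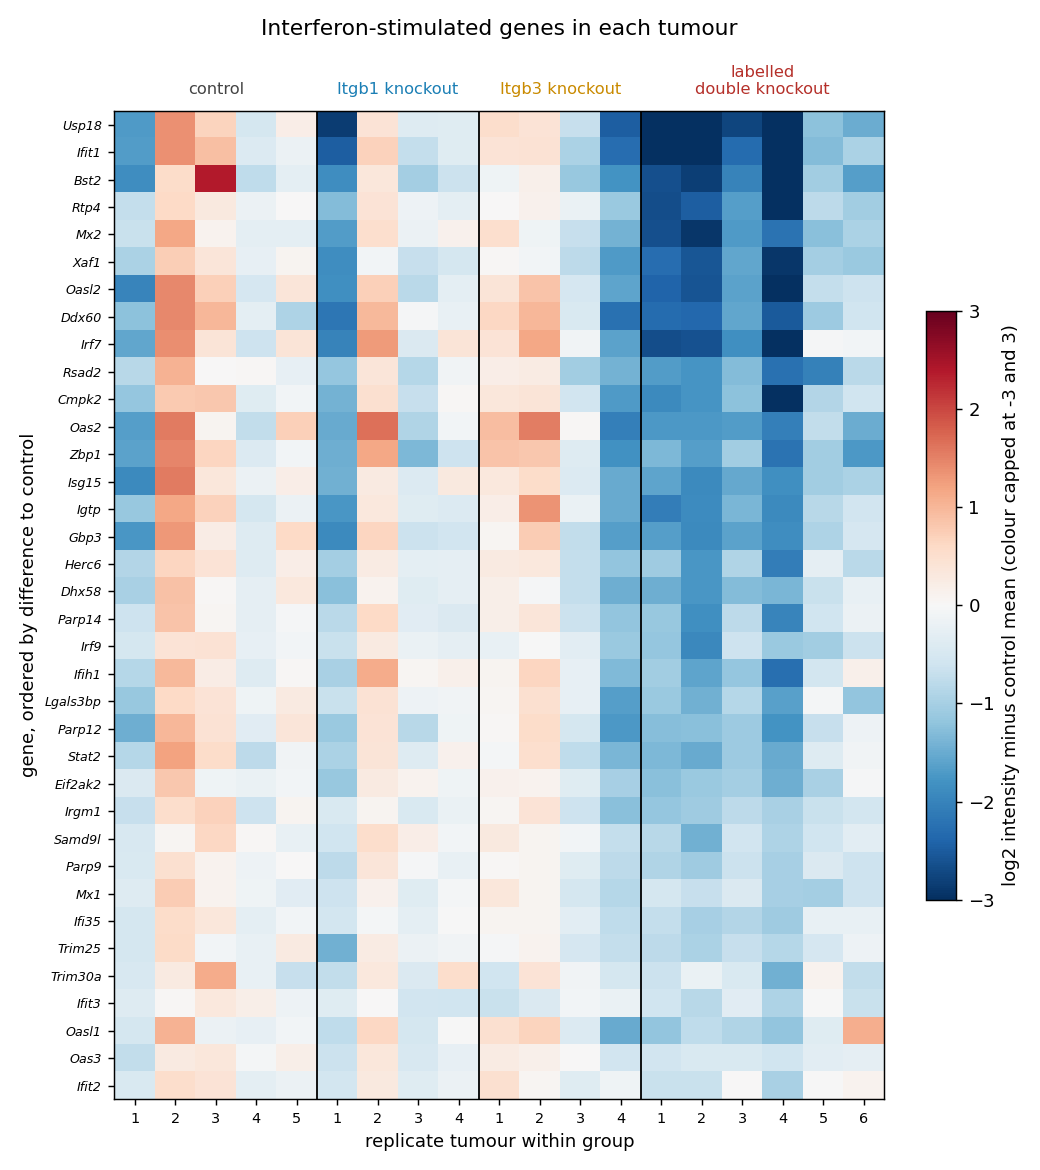
Each row is 1 of the 36 genes and each column 1 of the 19 tumours, and the colour is the log2 intensity minus the mean of the 5 control tumours, with blue for lower and red for higher. The columns of the labelled double knockouts are mostly blue, as are control replicate 1, Itgb1 knockout replicate 1 and Itgb3 knockout replicate 4.

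The targeted genes were checked first. Itgb1 was 10.16 ± 0.19 (SD) in control and fell by 1.84 in the tumours labelled double knockout (SE 0.191, adjusted p = 0.000156) and by 1.46 in the Itgb1 knockouts (SE 0.212, adjusted p = 0.0217). Itgb3 averaged 8.12 ± 0.25 in control and 7.01 ± 0.48 in its own knockouts, a difference of −1.12 (SE 0.254) that did not pass (adjusted p = 0.723). The labelled double knockouts averaged 8.13 ± 0.39 (difference to control 0.01, adjusted p = 0.986). The Itgb3 mean was thus not lower in the labelled double knockouts than in control. Against the Itgb3 knockouts it was higher by 1.13 (SE 0.244, limma adjusted p = 0.0223). The values ran from 7.69 to 8.55 in the labelled double knockouts and from 6.34 to 7.40 in the Itgb3 knockouts, with no overlap. Every direction given for the labelled double knockouts describes tumours with that label. Array medians ran from 4.32 to 4.48, the pairwise correlations of arrays ran from 0.963 to 0.984, and all 10 luminal epithelial markers were above the intensity filter of 4.38.

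The promoters of several members show the element through which the pathway works. RefSeq promoter sequence on GRCm38.p6 was at hand for 30 of the 39 members, covering 250 bases before to 50 bases after the start of the gene. The search was for the core of the response element, 2 copies of the half-site GAAA separated by 2 bases of any kind, on both strands (TTTC on the other strand), and neighbouring matches may share a half-site. At least 1 match lay in 15 of the 30 member promoters, or 50%, against 3.99% of the promoters of 27025 genes. A match describes letters only and is no sign of binding in these tumours.

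The 250 bases before the start are shown with half-sites of a match in capitals. They come from Xaf1, Rsad2, Irf9 and Bst2, which had promoter sequence and were among the 8 members with the smallest p between labelled double knockouts and controls, and from Ifit1, whose difference was second to that of Usp18. Rsad2 (chr12:26456453-26456702, minus strand) has 1 match, Bst2 (chr8:71537473-71537722, minus strand) and Ifit1 (chr19:34640639-34640888, plus strand) have 2 each, and Irf9 (chr14:55603735-55603984, plus strand) and Xaf1 (chr11:72301379-72301628, plus strand) have 0.
Rsad2: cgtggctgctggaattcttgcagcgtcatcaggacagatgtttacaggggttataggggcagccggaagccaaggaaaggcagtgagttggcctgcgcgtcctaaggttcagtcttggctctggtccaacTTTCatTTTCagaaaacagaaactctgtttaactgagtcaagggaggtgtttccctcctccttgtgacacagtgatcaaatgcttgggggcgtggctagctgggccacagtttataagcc
Bst2: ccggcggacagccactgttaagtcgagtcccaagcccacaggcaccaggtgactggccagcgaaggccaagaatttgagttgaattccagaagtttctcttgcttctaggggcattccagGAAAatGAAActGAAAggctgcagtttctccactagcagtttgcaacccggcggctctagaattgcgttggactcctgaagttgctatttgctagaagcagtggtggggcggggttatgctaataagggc
Ifit1: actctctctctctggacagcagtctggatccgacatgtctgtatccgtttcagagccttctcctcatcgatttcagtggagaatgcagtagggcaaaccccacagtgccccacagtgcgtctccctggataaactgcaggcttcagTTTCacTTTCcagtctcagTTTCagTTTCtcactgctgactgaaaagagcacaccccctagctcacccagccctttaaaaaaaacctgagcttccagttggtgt
Irf9: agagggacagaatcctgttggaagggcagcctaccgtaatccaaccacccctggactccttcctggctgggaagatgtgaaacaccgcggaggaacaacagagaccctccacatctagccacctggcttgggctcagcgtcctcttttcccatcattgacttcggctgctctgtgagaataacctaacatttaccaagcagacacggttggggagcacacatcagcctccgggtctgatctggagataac
Xaf1: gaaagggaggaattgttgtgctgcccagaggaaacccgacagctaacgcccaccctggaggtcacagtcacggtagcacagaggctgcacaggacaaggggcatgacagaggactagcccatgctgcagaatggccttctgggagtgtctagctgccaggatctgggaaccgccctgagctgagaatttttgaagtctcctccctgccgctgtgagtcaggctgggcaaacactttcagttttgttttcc
In Rsad2 the match begins at position −120, counted back from the start. In Bst2 the matches begin at −130 and −124 and share their middle half-site, while those of Ifit1 begin at −104 and −85 and are separate.

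Shorter windows around the matches show how the arrangement varies. They were chosen after the matches were known, and come from Isg15 (chr4:156200860-156200911, minus strand), Ddx60 (chr8:61928019-61928086, plus strand), Ifit3 (chr19:34583358-34583431, plus strand), Irgm1 (chr11:48871421-48871465, minus strand), Igtp (chr11:58199507-58199546, plus strand) and Stat2 (chr10:128270261-128270300, plus strand).
Isg15: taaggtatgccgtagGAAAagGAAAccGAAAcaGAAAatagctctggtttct
Ddx60: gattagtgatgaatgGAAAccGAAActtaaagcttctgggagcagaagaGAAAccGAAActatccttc
Ifit3: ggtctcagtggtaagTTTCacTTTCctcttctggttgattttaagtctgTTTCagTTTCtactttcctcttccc
Irgm1: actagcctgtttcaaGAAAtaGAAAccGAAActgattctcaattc
Igtp: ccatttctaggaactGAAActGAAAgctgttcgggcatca
Stat2: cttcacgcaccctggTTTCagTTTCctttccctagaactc
Isg15 holds 3 overlapping matches, a run of half-sites, whereas Ddx60 and Ifit3 hold 2 matches apart from each other. Igtp and Stat2 hold 1 match each, close to the start in Igtp at −34 and far from it in Stat2 at −222. Members with and without a match were both lower in the tumours labelled double knockout. The median difference to control was −1.25 over the 14 tested members with a match and −1.05 over the 13 with promoter sequence and no match. Rtp4 was not among the promoters at hand, and Xaf1 held no match in its window.

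Rtp4, a chaperone of receptor transport with antiviral activity, was the first of the pair that fell (probe set 17324446). It read 9.78, 11.09, 10.78, 10.31 and 10.49 in the controls, and in the 6 tumours labelled double knockout the lowest, median and highest values were 7.18, 8.43 and 9.70. The Itgb1 knockouts read 9.19, 10.91, 10.33 and 10.20, and the Itgb3 knockouts read 10.51, 10.63, 10.30 and 9.38. All 6 labelled double knockouts lay below every control, but they overlapped the lowest tumour of each single knockout. The difference to control was −1.99 (SE 0.409, 3.97-fold, adjusted p = 0.0499).

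Xaf1, which promotes cell death by opposing inhibitors of apoptosis, fell by 1.91 (SE 0.412, 3.76-fold, adjusted p = 0.0499, probe set 17252341). It read 7.54, 9.23, 8.86, 8.24 and 8.58 in the controls and 5.57, 6.57 and 7.48 at the lowest, median and highest labelled double knockout. In the Itgb1 knockouts it was 6.61, 8.40, 7.80 and 7.96, and in the Itgb3 knockouts 8.52, 8.40, 7.71 and 6.79. The highest labelled double knockout was just under the lowest control, and control replicate 1 was the control nearest to them.

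Both calls sat at the threshold. The adjusted p ran from 0.0114 to 0.145 for Rtp4 and from 0.0248 to 0.138 for Xaf1 over 28 other settings, of which Rtp4 passed in 10 and Xaf1 in 6. No member passed when control replicate 1, 2, 3 or 4, Itgb1 knockout replicate 3 or 4, any 1 of the Itgb3 knockouts, or labelled double knockout replicate 1, 2, 3 or 4 was left out. In contrast 4 members passed without labelled double knockout replicate 5 and 5 without replicate 6. The remaining members of that role were Lgals3bp, a secreted glycoprotein that binds galectins (−1.05, SE 0.366, adjusted p = 0.165), and Ifi35, an interferon-induced partner of Nmi (−0.69, SE 0.216, adjusted p = 0.135). Their second probe sets, not used in the tests, differed by −1.15 and −0.20.

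**Figure D2:**
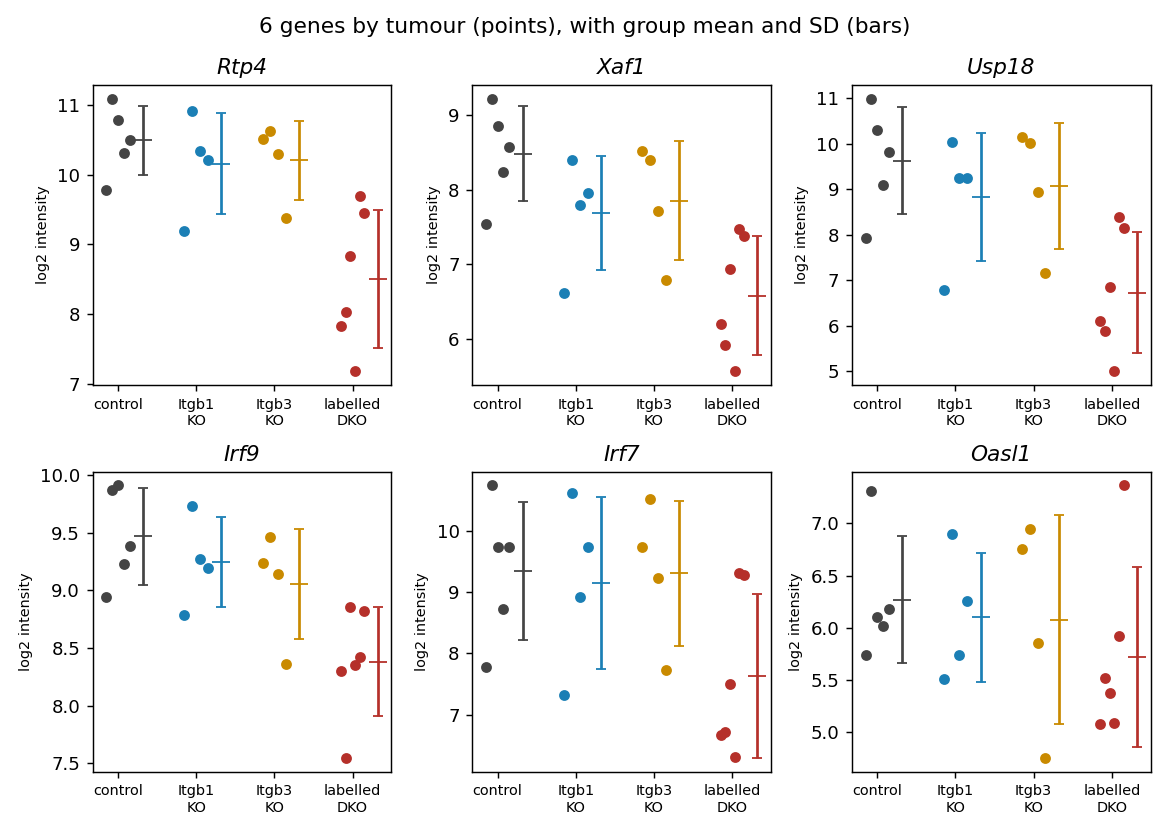
Points are the log2 intensity of each tumour for 6 genes, and the bar beside each group is its mean and SD. For Rtp4, Xaf1 and Irf9 all 6 labelled double knockouts lie below the 5 controls, while for Usp18, Irf7 and Oasl1 the groups overlap.

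The transcription factors Irf9, Irf7 and Stat2 had lower means in the tumours labelled double knockout, and none of them passed. Irf9, the DNA-binding part of the complex with Stat2, read 8.94, 9.87, 9.91, 9.23 and 9.39 in control and 7.55, 8.39 and 8.85 at the lowest, median and highest labelled double knockout. The Itgb1 knockouts were at 8.79, 9.74, 9.27 and 9.19 and the Itgb3 knockouts at 9.24, 9.46, 9.15 and 8.36. All 6 labelled double knockouts were again below every control (difference −1.09, SE 0.248, adjusted p = 0.058).

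Irf7, which amplifies interferon production, varied more. Its control values were 7.78, 10.74, 9.73, 8.71 and 9.74, and the labelled double knockouts ran from 6.31 over a median of 7.11 to 9.31. It read 7.33, 10.61, 8.91 and 9.73 in the Itgb1 knockouts and 9.74, 10.51, 9.22 and 7.73 in the Itgb3 knockouts. Labelled double knockout replicates 5 and 6 stood at the level of the middle controls and the other 4 were below every control. The difference was therefore large with a wide error (−1.71, SE 0.690, adjusted p = 0.220).

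Stat2, which carries the activation domain, read 6.95, 9.02, 8.36, 7.03 and 7.70 in control and 6.31, 6.60 and 7.71 at the lowest, median and highest labelled double knockout. The single knockouts read 6.86, 8.20, 7.42 and 7.94 for Itgb1 and 7.75, 8.31, 7.06 and 6.43 for Itgb3. Its groups overlapped (difference −0.99, SE 0.400, adjusted p = 0.221).

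The antiviral GTPases and effectors at membranes or on nucleotides had the lowest role median, −1.61 over 6 members. Rsad2, or viperin, converts a nucleotide into a chain terminator of viral polymerases. It read 6.93, 8.82, 7.78, 7.80 and 7.52 in control and 5.54, 6.04 and 6.97 at the lowest, median and highest labelled double knockout. The Itgb1 knockouts read 6.60, 8.13, 6.91 and 7.66, and the Itgb3 knockouts 7.97, 8.03, 6.72 and 6.35. Only the highest labelled double knockout reached above the lowest control (difference −1.64, SE 0.372, adjusted p = 0.0577).

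Mx2, a dynamin-like GTPase that blocks viral replication, read 5.90, 7.71, 6.68, 6.26 and 6.26 in control and 3.65, 4.61 and 5.62 at the lowest, median and highest labelled double knockout. Its single knockout values were 4.88, 7.07, 6.39 and 6.69 for Itgb1 and 7.06, 6.44, 5.87 and 5.14 for Itgb3. The labelled double knockouts and the controls did not overlap (difference −1.94, SE 0.442, adjusted p = 0.0577), though 3 of the former lay under the intensity filter, and with those raised to it the difference was −1.74.

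Bst2, or tetherin, holds budding virus at the cell surface. It read 6.51, 8.92, 10.75, 7.62 and 8.09 in control and 5.21, 6.06 and 7.33 at the lowest, median and highest labelled double knockout. The Itgb1 knockouts were at 6.53, 8.72, 7.35 and 7.74 and the Itgb3 knockouts at 8.25, 8.54, 7.24 and 6.59. Control replicate 3 stood far above the rest, and control replicate 1 lay inside the labelled double knockouts (difference −2.22, SE 0.60, adjusted p = 0.0873).

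Cmpk2, a mitochondrial nucleotide kinase next to Rsad2 on the chromosome, differed by −1.59 (SE 0.488). Samd9l, which restricts poxviruses, differed by −0.79 (SE 0.237), and the GTPase Mx1 by −0.71 (SE 0.226). Mx1 was dim, with 14 of its 19 values under the filter, among them all 6 labelled double knockouts and 3 of the 5 controls. Its difference was −0.14 with those values raised to the filter. All 6 labelled double knockouts were below every control for 5 of the 36 members, Rtp4, Xaf1, Mx2, Irf9 and Mx1, against 0.597% of all genes. For Mx1 this is an order of values under the filter, where the lowest control lay too, and it carries little weight. With control replicate 1 left out the lack of overlap held for 19 members and with labelled double knockout replicate 6 left out for 8. With arrays centred on their medians it held for 1. All genes were not counted in those settings, so these counts have no share to be read against. Leaving out a tumour loosens the rule for every gene. For 0 of the 36 members were all 6 below all 13 other tumours, against 0.0562% of all genes.

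The ubiquitin-like modifier Isg15, its ligase, its protease and the ubiquitin ligase Trim30a were grouped as 1 role, and these 4 tested members had a median difference of −1.31. Usp18 removes Isg15 and also dampens the interferon receptor, and it had the lowest difference of all members. It read 7.92, 10.99, 10.29, 9.10 and 9.81 in control and 4.99, 6.48 and 8.38 at the lowest, median and highest labelled double knockout. The Itgb1 knockouts read 6.78, 10.03, 9.24 and 9.25, and the Itgb3 knockouts 10.14, 10.02, 8.93 and 7.15. Labelled double knockout replicates 5 and 6 overlapped control replicate 1 alone (difference −2.89, SE 0.718, 7.43-fold, adjusted p = 0.0719). Isg15 itself differed by −1.48 (SE 0.480), Herc6, which attaches it to proteins, by −1.14 (SE 0.353), and Trim30a, a ligase that restrains inflammatory signalling, by −0.57 (SE 0.324). Trim30a had 14 of 19 values under the filter, among them all 6 labelled double knockouts. Its difference was −0.29 without control replicate 3 and −0.18 with those values raised.

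The RNA sensors and their regulators had a median difference of −1.13 over 5 members, and 0 passed. Ddx60, a helicase that aids RNA sensing, was at −1.74 (SE 0.630) and Zbp1, which recognises Z-form nucleic acid and can trigger necroptosis, at −1.50 (SE 0.554). Dhx58, or LGP2, was at −1.13 (SE 0.352), Ifih1, or MDA5, at −1.08 (SE 0.436) and Trim25, a ubiquitin ligase of RNA sensing, at −0.65 (SE 0.258). For Ifih1 and Trim25, labelled double knockout replicates 5 and 6 stood within the range of the controls and the other 4 below it.

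The translation inhibitors and the 2-5A synthetase family spanned a wide range, with a median difference of −0.77 over 8 members. Ifit1, which binds RNA that lacks the host cap, was at −2.49 (SE 0.675, adjusted p = 0.0884), and its neighbours Ifit3 at −0.56 (SE 0.171) and Ifit2 at −0.36 (SE 0.233) were much closer to 0. Ifit2 read 4.10, 5.07, 4.95, 4.26 and 4.36 in control and 3.59, 4.21 and 4.66 at the lowest, median and highest labelled double knockout. It read 4.0, 4.85, 4.19 and 4.36 in the Itgb1 knockouts and 5.04, 4.61, 4.18 and 4.43 in the Itgb3 knockouts. All of these values were near the filter, 10 of 19 were under it, and the difference was −0.23 without control replicate 2 and −0.15 with low values raised.

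Oas3 makes the 2-5A messenger that activates RNase L, and it was also close to 0. It read 4.66, 5.67, 5.75, 5.34 and 5.59 in control and 4.80, 4.94 and 5.12 at the lowest, median and highest labelled double knockout. Its values were 4.76, 5.74, 4.92 and 5.16 in the Itgb1 knockouts and 5.65, 5.56, 5.41 and 4.83 in the Itgb3 knockouts. The 6 labelled double knockouts sat closely together, below 4 of the 5 controls and above control replicate 1 (difference −0.45, SE 0.198, adjusted p = 0.261). Its neighbour Oas2 was at −1.56 (SE 0.631).

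Oasl1, which represses translation of Irf7 in the mouse, read 5.74, 7.31, 6.11, 6.02 and 6.18 in control and 5.08, 5.45 and 7.36 at the lowest, median and highest labelled double knockout. In the Itgb1 knockouts it was 5.51, 6.90, 5.74 and 6.26, and in the Itgb3 knockouts 6.75, 6.95, 5.86 and 4.75. Labelled double knockout replicate 6 had the highest Oasl1 of all 19 tumours, and the groups overlapped (difference −0.55, SE 0.431, adjusted p = 0.547). The difference was −0.87 without that tumour and −0.29 without control replicate 2. The adjacent gene Oasl2 was at −1.89 (SE 0.62), and Eif2ak2, the kinase PKR that halts translation on sensing RNA, at −0.98 (SE 0.291). Probe sets of the Ifit, Oas, Mx, Gbp and Trim30 families may pick up near-identical relatives, so the values of single members of those families are uncertain.

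The ADP-ribosyltransferases differed by −0.78 to −1.09, and none of the 3 passed. Parp9, which works with the ubiquitin ligase Dtx3l, read 7.77, 8.70, 8.32, 8.08 and 8.22 in control and 7.15, 7.44 and 7.79 at the lowest, median and highest labelled double knockout. The Itgb1 knockouts read 7.43, 8.58, 8.17 and 8.0, and the Itgb3 knockouts 8.25, 8.31, 7.85 and 7.44. Labelled double knockout replicate 5 was barely above control replicate 1, and the other 5 lay below every control (difference −0.78, SE 0.205, adjusted p = 0.0844). Parp14, which modifies proteins of interferon signalling, was at −1.09 (SE 0.358) and Parp12, which blocks viral translation, at −1.04 (SE 0.434). The probe set shared by Dtx3l and Parp9 was at 7.94 ± 0.28 in control and 7.42 ± 0.17 in the labelled double knockouts, a difference of −0.52.

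Among the GTPases that interferon gamma also induces, Igtp was at −1.45 (SE 0.483), Gbp3 at −1.41 (SE 0.516) and Irgm1 at −0.87 (SE 0.277). Of these 3 members, 0 passed. The probe set shared by Gbp2 and Gbp2b was at 7.82 ± 0.96 in control and 7.22 ± 0.24 in the labelled double knockouts, a difference of −0.59.

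**Figure D3:**
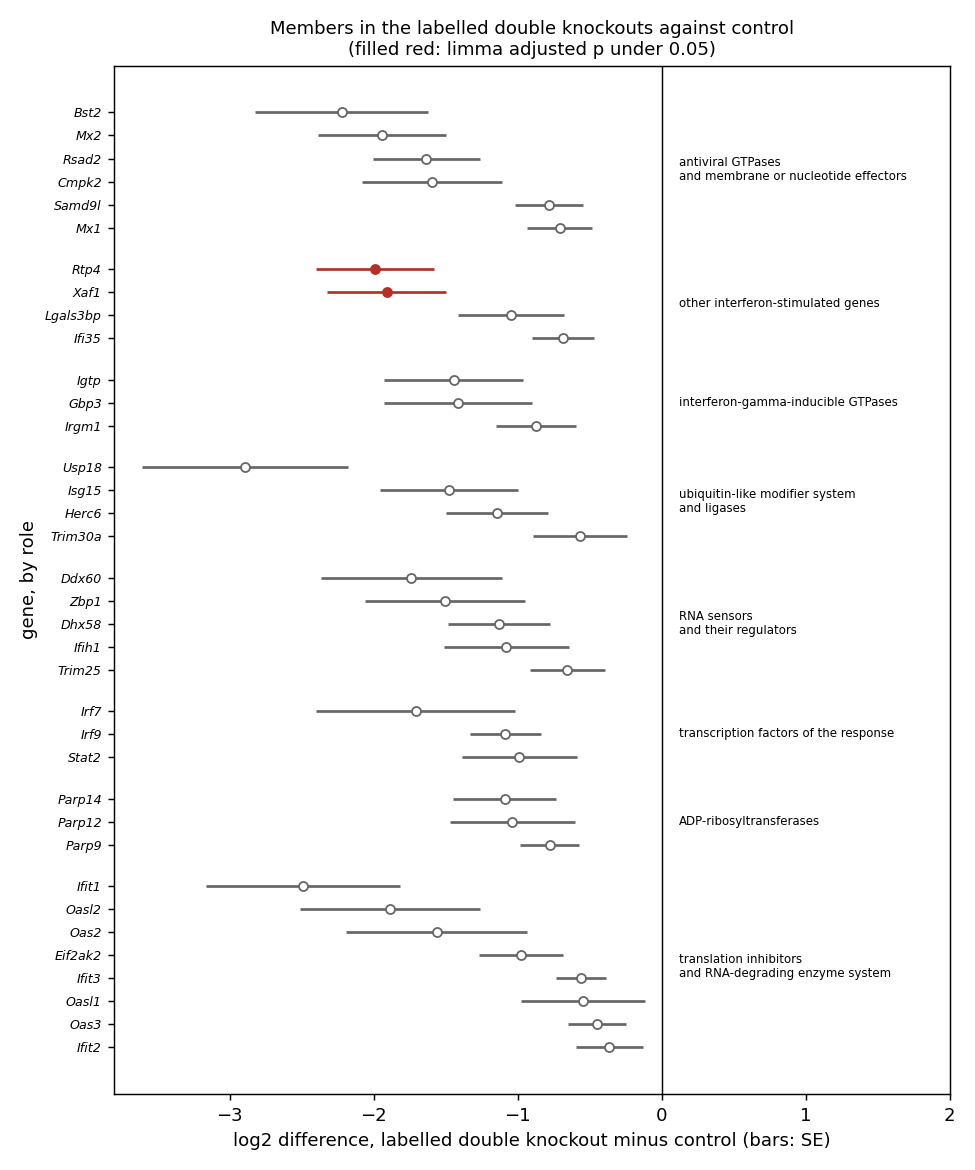
Each point is the log2 difference between the 6 labelled double knockouts and the 5 controls for 1 gene, ordered by role, and the bar is its SE. All 36 points lie below 0, from −2.89 for Usp18 to −0.36 for Ifit2, and Rtp4 and Xaf1 are the filled points.

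Single knockouts stood nearer to control. In the Itgb1 knockouts 34 of the 36 members had a lower mean, with a median of −0.32 (all genes 0.02) and a range from −0.80 for Usp18 to 0.08 for Ifih1. Of the members 0 passed, against 0.00703% of all genes, and 0 had an unadjusted p under 0.05 in the lower direction, against 1.56%. The smallest adjusted p was 0.982. The median was −0.07 with Itgb1 knockout replicate 1 left out, where 23 members were lower and 13 higher, and −0.12 with control replicate 2 left out, where 28 were lower and 8 higher. Leaving out control replicate 1 gave −0.50, and leaving out Itgb1 knockout replicate 2 gave −0.55.

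In the Itgb3 knockouts 34 members again had a lower mean, with a median of −0.29 (all genes −0.01) and a range from −0.72 for Bst2 to 0.11 for Oas2. Of them 0 passed, against 0% of all genes, and 0 had an unadjusted p under 0.05 in the lower direction, against 2.8%. The smallest adjusted p was 0.834. Without Itgb3 knockout replicate 4 the median was −0.02, with 19 members lower and 17 higher, so the count of lower members rested on that tumour. Without control replicate 2 the median was −0.13, with 25 lower and 11 higher. Leaving out control replicate 1 gave −0.53, and leaving out Itgb3 knockout replicate 1 or 2 gave −0.46 and −0.54. These comparisons and the preceding one share the 5 controls. Between the single knockouts the median difference, Itgb3 minus Itgb1, was 0.01, with 16 members lower and 20 higher, and −0.06 with arrays centred, where 21 were lower and 14 higher. There 0 members passed, against 0% of all genes lower, and 0 had an unadjusted p under 0.05, against 2.82%.

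The tumours labelled double knockout were below each single knockout in all 36 means. Against the Itgb1 knockouts the median was −0.86 (all genes 0.01) and the range −2.10 for Usp18 to −0.17 for Ifit2. Here 0 members passed, against 0.00703% of all genes, while 17 had an unadjusted p under 0.05, against 4.99%, and the smallest adjusted p was 0.142 for Rtp4. Against the Itgb3 knockouts the median was −0.79 (all genes 0.03), from −2.33 for Usp18 to −0.21 for Ifit3. Rtp4 fell by 1.70 (SE 0.436, adjusted p = 0.0424), 1 of the 36 members, against 0.492% of all genes, and 20 members had an unadjusted p under 0.05, against 7.14%. The call of Rtp4 was lost without any 1 of the Itgb3 knockouts, without Itgb1 knockout replicate 3 or 4 and without labelled double knockout replicate 1, 2, 3 or 4 (0 members each time).

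The interaction asks whether the labelled double knockouts differed from control by more than both single differences added. It goes by the labels. The Itgb3 mean was not lower in the labelled double knockouts than in control, so the contrast need not describe a loss of both genes. The interaction was below 0 for 35 of the 36 members, with a median of −0.50 (all genes 0.01), from −1.54 for Usp18 to 0.16 for Ifit3. Of the members 0 passed, against 0% of all genes, and 1, Rtp4, had an unadjusted p under 0.05 (−1.37, SE 0.630, adjusted p = 0.386), against 4.96%. Leaving out control replicate 1, Itgb1 knockout replicate 2 or Itgb3 knockout replicate 2 brought the median to −0.31, −0.29 and −0.31. Leaving out Itgb1 knockout replicate 1 or Itgb3 knockout replicate 4 brought it to −0.80 and −0.83. Centring arrays on their medians moved the median of all genes by over 0.1 in 2 comparisons, from 0.03 to 0.14 for the labelled double knockouts against the Itgb3 knockouts and from 0.01 to 0.11 in the interaction.

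**Figure D4:**
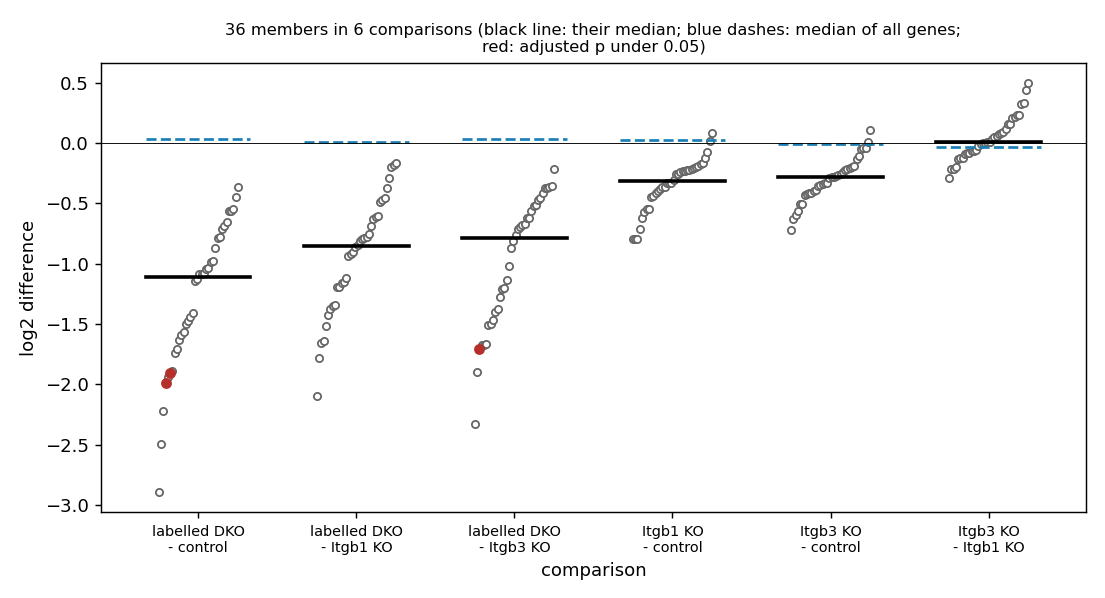
Points are the log2 differences of the 36 genes in 6 comparisons, black lines their medians and blue dashes the median of all 14231 genes. The medians are −1.11, −0.86 and −0.79 in the 3 comparisons of the labelled double knockouts and −0.32, −0.29 and 0.01 in the others.

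The tumours fell in a similar order for most members, also within a genotype. As a level for each tumour the median over the 36 members of the value minus the control mean was taken. In the controls it was −0.85, 0.83, 0.38, −0.29 and −0.05, in the Itgb1 knockouts −1.15, 0.37, −0.38 and −0.19, and in the Itgb3 knockouts 0.19, 0.37, −0.44 and −1.42. The labelled double knockouts were at −1.31, −1.74, −1.09, −1.85, −0.71 and −0.61. The 2 lowest tumours were labelled double knockout replicates 4 and 2, followed by Itgb3 knockout replicate 4, and control replicate 1 and Itgb1 knockout replicate 1 also lay among the labelled double knockouts. The group means were 0.01 ± 0.64, −0.34 ± 0.63, −0.33 ± 0.81 and −1.22 ± 0.52 (SD) in the same order of groups.

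Counts of the extreme tumour show this. Control replicate 1 was the lowest control in 35 of the 36 members and control replicate 2 the highest in 28. Itgb1 knockout replicate 1 was the lowest of its group in 35 and replicate 2 the highest in 33, while Itgb3 knockout replicate 4 was the lowest in 33 and replicate 2 the highest in 24. Among the labelled double knockouts replicate 4 was the lowest in 23 and replicate 6 the highest in 22. The spread within groups was accordingly wide, with a median SD of 0.738 over the members against 0.242 over all genes, and 35 of the 36 members exceeded the 75th percentile of all genes and 27 the 90th.

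Neighbouring genes had close differences in some pairs and distant ones in others. With no protein-coding gene between them, Oas2 and Oas3 differed by −1.56 and −0.45 and Oasl2 and Oasl1 by −1.89 and −0.55, whereas Rsad2 and Cmpk2 differed by −1.64 and −1.59 and Ifit2 and Ifit3 by −0.36 and −0.56. Itgb3 lies on chromosome 11 with 7 of the tested members, Xaf1, Dhx58, Ifi35, Irgm1, Igtp, Lgals3bp and Trim25. Their median in the labelled double knockouts was −1.05, against −1.14 over the 29 members elsewhere, and in the Itgb3 knockouts −0.34 against −0.29.

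The genes upstream of the members were measured from lists that are not part of the set. Of 20 type I and III interferon ligands 7 were above the filter, and 11, with Ifnb1 among them, were not. Their median in the labelled double knockouts minus control was −0.10, 0 passed, and 0 had an unadjusted p under 0.05 (Ifna15 −0.19, Ifnl3 −0.21, Ifna4 −0.10). Receptors, Janus kinases and regulatory factors were at a median of 0.14 over 12 genes, 11 of them higher, 0 passed, and 2 were higher at an unadjusted p under 0.05, against 11.2% of all genes. Irf8, a factor of myeloid cells, was at 0.70 (SE 0.173, adjusted p = 0.0715), the interferon gamma receptor chain Ifngr2 at 0.37 and the shared receptor chain Il10rb at 0.28. Irf8 rose against the Itgb3 knockouts (0.82, SE 0.184, adjusted p = 0.0263).

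Nucleic acid sensors and adaptors had a median of 0.17 over 15 genes, 0 passed, and at an unadjusted p under 0.05 2 were lower and 5 higher, against 5.68% and 11.2% of all genes, the shares for the other lists too. The endosomal receptors Tlr9 and Tlr7 were at 0.39 and 0.38, and Tlr3, a receptor of double-stranded RNA, at −0.36. Sting1, the adaptor of cytosolic DNA sensing, rose against the Itgb3 knockouts (1.07, SE 0.237, adjusted p = 0.0261), where 2.38% of all genes passed in the higher direction. Negative regulators had a median of 0.01 over 13 genes, 0 passed, and 5 were lower and 1 higher at an unadjusted p under 0.05, with the RNase H2 subunit Rnaseh2b at −0.61, the RNA editor Adar at −0.68 and the signalling inhibitor Socs3 at 0.48.

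Other interferon-induced genes had mostly lower means in the labelled double knockouts, with a median nearer to 0 than that of the members. Of 49 tested, 39 had a lower mean, the median was −0.31, 0 passed, and 16 were lower and 1 higher at an unadjusted p under 0.05. Members and lists were chosen with earlier results of these data known, so the gap between their medians is not an independent result. Nt5c3, a nucleotidase, was at −0.50 (SE 0.124, adjusted p = 0.0715), and the 2-5A synthetase relatives Oas1b and Oas1g were at −1.19 (SE 0.298) and −2.55 (SE 0.672). Targets of interferon gamma had a median of −0.24 over 12 genes, with 7 lower and 5 higher, 0 passed, and 5 were lower at an unadjusted p under 0.05, and Ifng itself was not above the filter. The smallest p values in this list belonged to GTPases, Gbp9 at −1.28 (SE 0.470), Irgm2 at −1.22 (SE 0.454) and Gbp7 at −0.98 (SE 0.383).

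**Figure D5:**
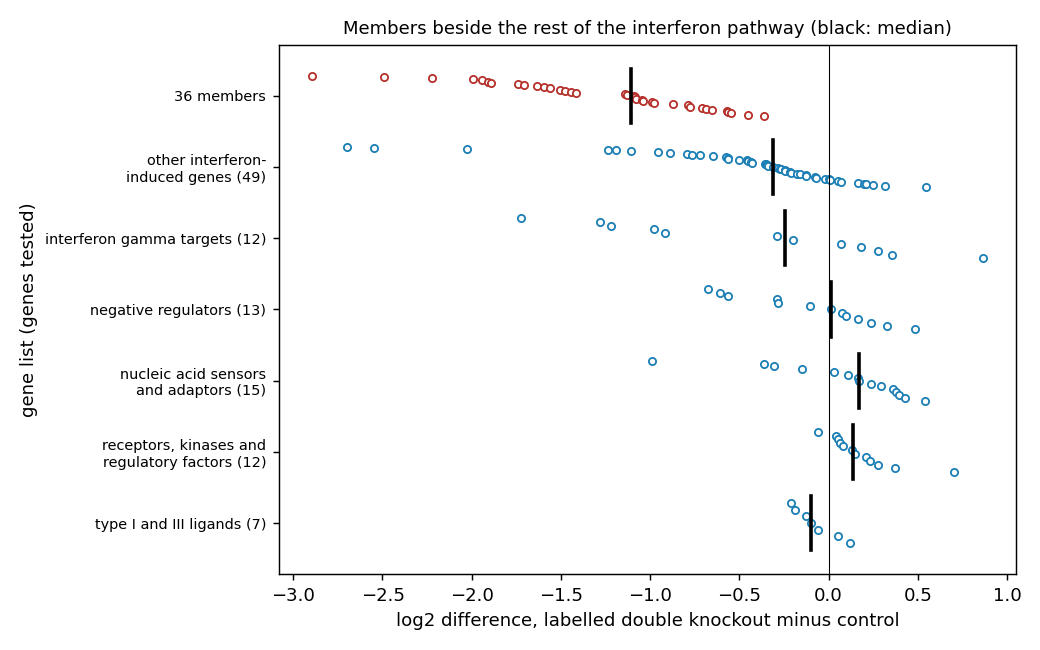
Points are the log2 differences between the 6 labelled double knockouts and the 5 controls for the 36 members and for 6 lists of other genes of the pathway, with the median of each as a black line. The median is −1.11 for the members, −0.31 for other interferon-induced genes, 0.14 for receptors, kinases and regulatory factors and −0.10 for ligands. Members and lists were chosen with earlier results of these data known.

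Of the markers of 10 cell types, 1 gene passed between labelled double knockouts and controls, the macrophage marker Cd14, against 0.295% of all genes in the higher direction. The part of other cells in the lower values of the members was not tested. Each list's level in a tumour is the median of its genes minus the control mean. Macrophage markers had a higher mean in 12 of 15 genes in the labelled double knockouts than in control (4 at an unadjusted p under 0.05), with levels of −0.27 to 0.71 against −0.50 to 0.39. Cd14, an endotoxin co-receptor gene, rose by 1.59 (SE 0.229, adjusted p = 0.00514). Against the Itgb3 knockouts Cd14 (1.19), Adgre1 (0.98) and Csf1r (0.98) rose. T and NK cell markers had a higher mean in 6 of 8, with levels of −0.23 to 0.98 against −0.77 to 0.44, while Cd3d, Cd2, Cd28, Zap70, Ncr1, Klrb1c, Klrd1 and Gzma were not above the filter. Plasmacytoid dendritic cells are a strong source of type I interferon, and their markers had a lower mean in 5 of 8, with levels of −0.36 to 0.14 against −0.37 to 0.11 and Ccr9, Klk1, Clec10a and Spib not above the filter.

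Markers of stroma and vessels had mostly higher means in the labelled double knockouts, 0 of them passed, and their levels overlapped those of the controls. Fibroblast markers had a higher mean in 9 of 10 genes (2 at an unadjusted p under 0.05, levels −0.54 to 1.19 against −0.34 to 0.64) and endothelial markers in 10 of 10 (3 at that p, levels −0.06 to 0.70 against −0.18 to 0.34). Neutrophil markers had a higher mean in 3 of 3 tested (0.19 to 0.45 against −0.19 to 0.29), with S100a8, S100a9, Ngp, Camp, Elane, Mpo and Retnlg not above the filter. B and plasma cell markers had a higher mean in 3 of 3 tested (0.02 to 0.59 against −0.29 to 0.19), with Cd79a, Cd79b, Ms4a1, Pax5, Blk and Tnfrsf17 not above it. Dendritic cell and MHC class II markers had a median difference of −0.03, adipocyte markers 0.04 and luminal epithelial markers 0.01.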

How the data were processed

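Whole-transcript arrays of 19 tumours were used. The deposited table holds normalized log2 intensities for 41345 probe sets, normalized by the authors with Affymetrix Expression Console, per the submitters' processing notes, with the version, background correction and summarization not given in the sources used here. They were used with no further normalization. A gene was tested where a probe set with 1 symbol had a value of 4.38 or more (the table's median) on 4 or more arrays, and the probe set with the highest mean was kept. All groups entered 1 fit in limma 3.58.1 (R 4.3.3, lmFit and eBayes, 15 residual degrees of freedom) with no covariates, since no batch is given. Each two-sided test was adjusted over 14231 genes (Benjamini-Hochberg) and read at a threshold of 0.05. The fit was tried on simulated data in which genes varied independently of each other. The members rise and fall together, so that trial does not bear on counts over the members. Each tumour's title carries a number of its own, but the labels do not say that it stands for an animal. The p-values thus speak only of the spread among these tumours, biological and technical together. Precision is set by how many arrays there are.

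Values by tumour (for the 6 labelled double knockouts the lowest, median and highest) are given for the 8 members with the smallest p between labelled double knockouts and controls, the transcription factors Irf7, Irf9 and Stat2, and the 3 members with the smallest absolute difference. Of the other pathway lists, genes that passed in any comparison and the 3 with the smallest p in each list were named (Ifnb1 and Ifng, outside this rule, only as not above the filter). The members and lists were chosen with earlier results of these data known. Array centring, quantile normalization, other filters, the spread model, the samples in the fit, the probe set rule and leaving out each tumour were tried as alternatives.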

Additional observations from a re-analysis of the deposited data

Results flagged for a closer look

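In each group of values with per-tumour data, the highest and lowest tumour were set against the others with Dixon's test, which flags about 1 in 20 groups by chance. Of 56 groups of values, 2 had such a tumour, both for Oasl1. Control replicate 2 read 7.31, with the nearest control at 6.18, and labelled double knockout replicate 6 read 7.36, with the nearest of its group at 5.92.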

How the results depend on the processing

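All 36 members stayed below 0 in the labelled double knockouts minus control in each of 28 settings, where a member still passed the filter. The median of the members moved by less than its spread between tumours (SD 0.64) in all 7 comparisons. That SD is wider than the medians of both single knockouts against control, of Itgb3 minus Itgb1 and of the interaction. A change of sign could therefore stay within it. On leaving out 1 tumour the median of Itgb3 minus Itgb1 ran from −0.28 to 0.27. Counts moved too. The members that passed against control (2) were 0 with array weights, with trend and robust spread, with no filter and with only the groups compared, 1 with quantile normalization and 1 with values under the filter raised to it (an alternative chosen after seeing the data), and 0 to 5 on leaving out 1 tumour. Against the Itgb3 knockouts (1) they were 3 with array weights, 0 with no filter, 0 with only the groups compared and 0 to 1 on leaving out 1 tumour. The count without overlap (5) was 1 with centred arrays and 5 to 19 on leaving out 1 tumour, with no count over all genes in those settings. On leaving out 1 tumour the members with a lower mean than control were 23 to 36 of 36 in the Itgb1 knockouts and 19 to 36 in the Itgb3 knockouts (34 in each with all tumours), so several members turned sign there. Of Rtp4, Xaf1, Irf9, Irf7 and Stat2, the 5 followed singly there, signs turned for Irf7 in the Itgb1 knockouts (−0.68 to 0.41) and the Itgb3 knockouts (−0.44 to 0.48) and for Stat2 in the Itgb1 knockouts (−0.42 to 0.093). Itgb3 in the labelled double knockouts minus control was −0.025 with array weights, −0.041 with quantile normalization and −0.088 to 0.10 on leaving out 1 tumour. The causes were not tested. No paired analysis was possible because the labels give nothing that pairs tumours of different groups. They give no replicate numbers either, and those used here follow the order of the samples within each group. The number of arrays and the wide spread of the members limit what passes. Differences of dim genes near the filter are uncertain, and those of Mx1, Trim30a and Ifit2 shrank with low values raised to it.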
